A study of Danio rerio with 12 samples.

Results

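Whole eyes of zebrafish that were homozygous mutants for mmachc were compared with whole eyes of fish heterozygous for the same mutation at 7 days post fertilization (dpf), a larval age. The comparison uses 6 of the 12 Affymetrix arrays of the study, 3 pools of mutant eyes and 3 pools of heterozygous eyes, and takes the mutant minus heterozygous difference in log2 intensity for every probe set with exactly 1 gene symbol. These were 20806 of 75212 probe sets and stood for 19260 genes, each represented by its brightest probe set. The other 6 arrays hold mutant and heterozygous eyes at 28 dpf, in 3 pools each, and entered the same fit. Heterozygous fish carry the mutation too, so both groups share it and no wild-type eye was measured. What the mutation does to the gene, how many fish entered a pool, whether separate clutches gave the pools and at what time of day eyes were taken are not stated in the labels. The p-values therefore reflect only how these pools vary, which may be technical variation.

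The mmachc product processes cobalamin (vitamin B12) inside the cell into the forms used by methionine synthase and methylmalonyl-CoA mutase, and loss of the human gene raises homocysteine and methylmalonic acid. The larval zebrafish eye sees mainly with cones. Its photoreceptors hold a circadian clock that light can set directly and that drives melatonin synthesis.

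The probe set that names mmachc also names hspa8, so it gives no level of mmachc alone and does not check the genotype labels. It read 7.23, 7.48 and 7.40 on the mutant arrays, against 7.43, 7.47 and 7.49 on the heterozygous arrays. All values are log2 intensities, and a level below the 33rd percentile of its array (taken over probe sets with a gene symbol, 6.14 to 6.26) is called dim here. Of 36 measured defining markers of 39 chosen for the eye's cell types and for other cells, 28 stood above that percentile on all 6 arrays, those of rods, cones, pigment epithelium, bipolar, horizontal, amacrine and ganglion cells, lens and cornea among them. The glial filament gene gfap was dim on 1 mutant array, and the muscle genes acta1b and mylpfa on 1 and 2 heterozygous arrays. The muscle gene ckma, the macrophage gene mpeg1.1, the neutrophil genes mpx and lyz and the myelin gene mbpa were dim on all 6 arrays. Above the percentile on all 6 were the macrophage gene csf1ra, the erythrocyte genes hbae1.1 and alas2 and the endothelial genes cdh5 and kdrl. In the limma test described below 9 of the 36 measured markers were called, against 12.4% of all tested genes. Each array correlated more closely with its own group (median r of 0.9906 to 0.9942 over genes) than with the other (0.9804 to 0.9845).

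Of 14002 genes tested with limma, 1743 differed between mutant and heterozygous eyes at a Benjamini-Hochberg adjusted p under 0.05, which is 12.4%. Of these 567 rose in mutant eyes (4.05% of genes tested) and 1176 fell (8.4%). Most differences were small. The median size among called genes was 0.35 on the log2 scale, or 1.27-fold, 1521 of the called genes changed by less than 1.5-fold, and 27 rose and 21 fell by 2-fold or more. The median difference of all tested genes was -0.03, and after the arrays were centred on their named probe sets the falls made up 57.2% of the calls, against 67.5% as deposited. Without heterozygous replicate 2 the rises numbered 371. All 3 mutant arrays lay above all 3 heterozygous arrays for 11.8% of tested genes and below them for 18.6%. In pooled whole eyes, fewer cells of a type and less RNA per cell cannot be told apart. The gene lists below were chosen with earlier results of these data known. Their counts are descriptive and are to be read beside the 4.05% and 8.4% of all genes tested.

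**Figure D1:**
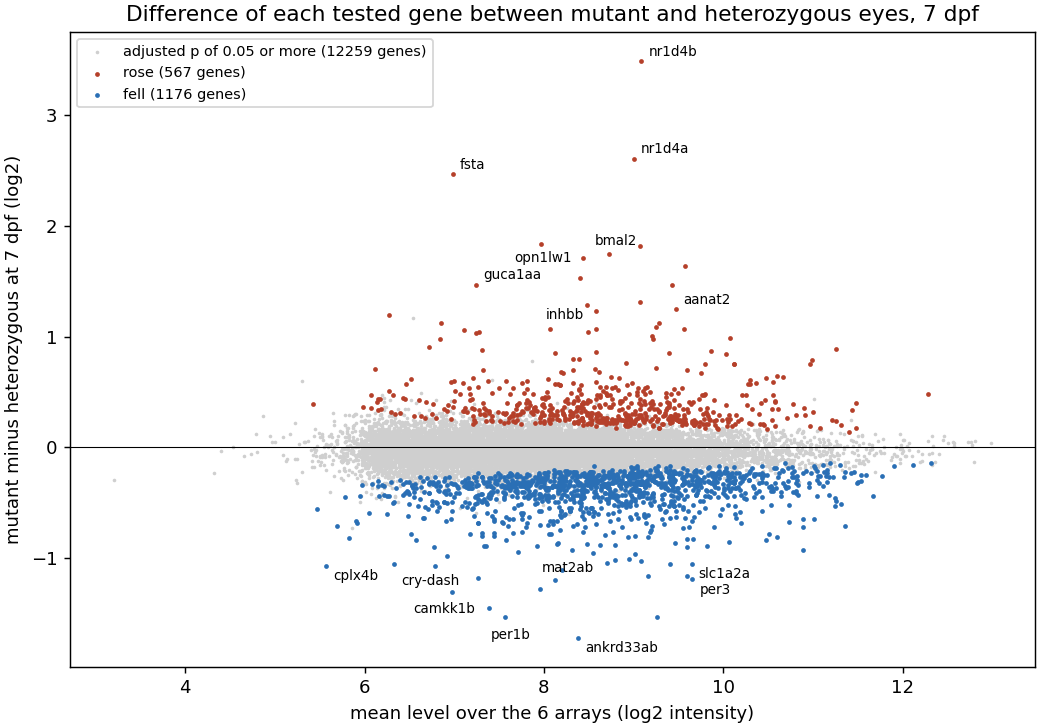
Each point is 1 of 14002 tested genes, with its mean log2 intensity over the 6 arrays on the x axis and its mutant minus heterozygous difference (log2) on the y axis; red points rose and blue points fell at a limma adjusted p under 0.05. The rises in nr1d4b, nr1d4a and fsta stand apart from the other genes, while the median size of a called difference is 0.35.

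The largest differences were found among genes of the circadian clock. Both nr1d4 genes, which encode nuclear receptors of the Rev-erb repressor family, were strongly raised. The gene nr1d4b measured 10.8, 10.98 and 10.7 on the mutant arrays, against 7.35, 7.2 and 7.47 on the heterozygous arrays, a rise of 3.49 ± 0.13 (difference ± SE, n = 3 each) or 11.2-fold (limma adjusted p = 1.31e-10). Its paralog nr1d4a measured 10.27, 10.42 and 10.24 in mutant eyes and 7.67, 7.67 and 7.75 in heterozygous eyes, 6.12-fold higher (adjusted p = 3.85e-10). In both genes the lowest mutant array lay more than 2 log2 units above the highest heterozygous array. Of their relatives, nr1d2b was lower, and nr1d1 and nr1d2a did not pass the test. The levels of nr1d2b were 9.43, 9.31 and 9.36 in mutant eyes, against 10.24, 10.3 and 10.24 in heterozygous eyes (-0.89 ± 0.26, adjusted p = 0.0313). For nr1d1 they were 9.19, 9.51 and 9.53 in mutant eyes, against 8.98, 9.04 and 9.0 in heterozygous eyes (0.4 ± 0.26, adjusted p = 0.368), so its arrays did not overlap at 7 dpf, and the large SE draws on the spread of the 28 dpf arrays that share the fit.

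Of the activators that bind E-box elements, bmal2 and clocka rose and the others did not pass the test. The level of bmal2 was 9.68, 9.52 and 9.62 in mutant eyes, against 7.66, 7.85 and 8.05 in heterozygous eyes, 3.37-fold higher (adjusted p = 2.21e-06). Mutant arrays read 10.42, 10.58 and 10.49 for clocka, against 9.72, 9.71 and 9.79 on heterozygous arrays (1.69-fold, adjusted p = 2.09e-05). Neither gene's groups overlapped. The paralogs bmal1a (0.22 ± 0.08), bmal1b (0.04 ± 0.07), clockb (0.14 ± 0.06) and npas2 (-0.08 ± 0.07) gave adjusted p-values from 0.0797 to 0.79. The nuclear receptors roraa and rorab, which act on the same elements as the Rev-erb proteins but as activators, fell by 0.43 and 0.44 (adjusted p = 0.000124 and 4.67e-05). Over the whole activator list 2 of 10 tested members rose and 2 fell.

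Among the clock repressors 5 of 23 tested members rose and 9 fell, so 60.9% passed the test in one direction or the other. The light- and clock-driven period gene per1b stood at 6.97, 6.59 and 6.85 in mutant eyes, against 8.32, 8.38 and 8.32 in heterozygous eyes, and fell by 1.53 ± 0.25 (adjusted p = 0.000621). Its relative per3 stood at 9.13, 8.95 and 9.11 in mutant eyes, against 10.28, 10.27 and 10.21 in heterozygous eyes, 2.28-fold lower (adjusted p = 8.96e-06). The groups did not overlap in either gene. In per2, which light induces in zebrafish, the arrays read 9.92, 9.84 and 10.09 in mutants, against 10.16, 10.1 and 10.15 in heterozygotes, a difference of -0.19 ± 0.07 that did not pass the test (adjusted p = 0.109). The helix-loop-helix repressors bhlhe40 and bhlhe41 (also called Dec1 and Dec2) fell by 0.93 and 0.79 (adjusted p = 9.23e-07 and 0.000521), and the CLOCK-BMAL inhibitor genes ciarta and ciartb by 0.8 and 0.68 (adjusted p = 0.000264 and 0.00775). The cryptochromes split. Levels of cry2 were 8.96, 8.8 and 8.8 in mutant eyes, against 9.5, 9.55 and 9.64 in heterozygous eyes (-0.71 ± 0.07, adjusted p = 9.12e-06), while cry3a was higher in mutant eyes at 12.52, 12.47 and 12.57, against 11.96, 12.08 and 12.07 in heterozygous eyes (0.48 ± 0.05, adjusted p = 1.13e-05). With cry3a, cry3b rose by 0.47 (adjusted p = 0.000376), and with cry2, cry1a fell by 0.17 (adjusted p = 0.0468). A further rise was seen in fbxl3l, a relative of the F-box gene that marks cryptochromes for breakdown in mammals, at 9.22, 9.31 and 8.96 in mutant eyes, against 7.64, 7.6 and 7.66 in heterozygous eyes (2.88-fold, adjusted p = 0.000166).

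**Figure D2:**
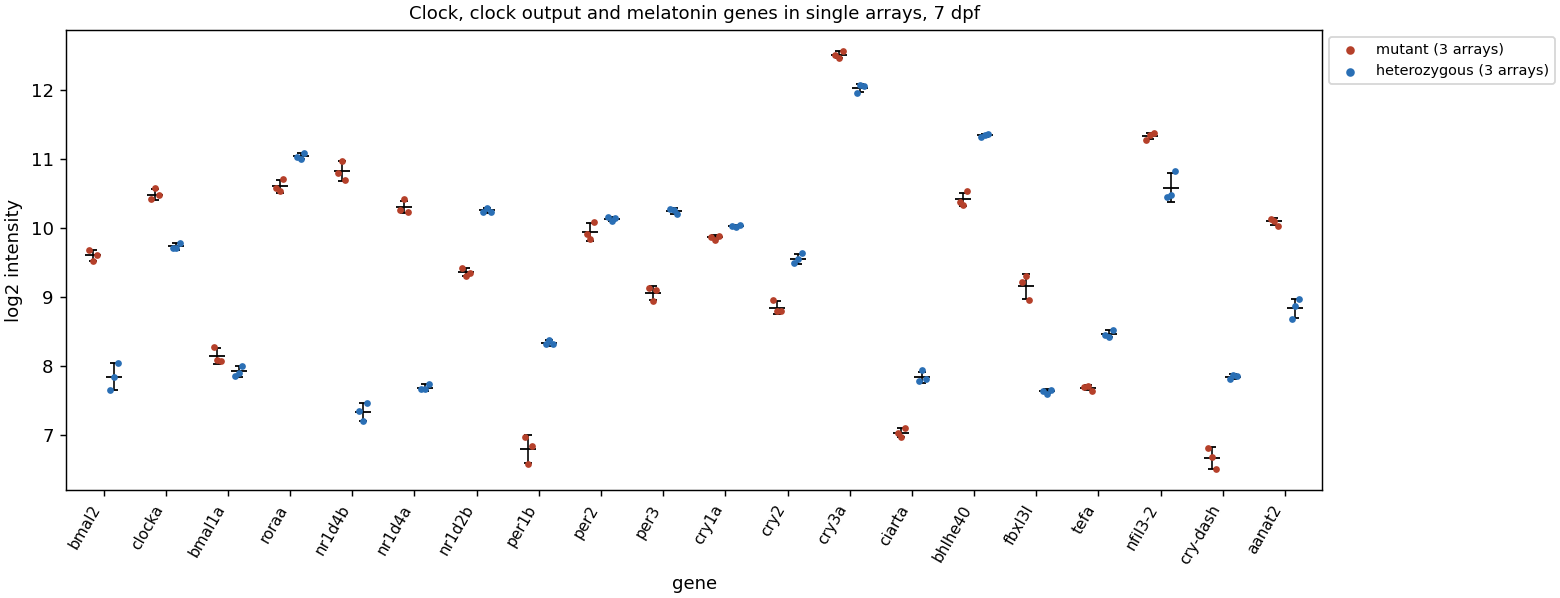
Log2 intensity of 20 clock, clock output, photolyase-family and melatonin genes on single arrays, with mutant arrays (red) left of heterozygous arrays (blue) for each gene and bars for the mean ± SD of 3 arrays. The bmal2, clocka, nr1d4, cry3a, fbxl3l, nfil3-2 and aanat2 values are higher in mutant eyes, those of per1b, per3, nr1d2b, cry2, ciarta, bhlhe40, tefa and cry-dash are lower, and those of bmal1a and per2 lie close together.

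Some genes that the clock or light drives also differed. Of 10 PAR bZIP and nfil3 genes, transcription factors that read out the clock through D-box elements, 4 fell and 1 rose. Levels of tefa were 7.7, 7.72 and 7.64 in mutant eyes, against 8.45, 8.43 and 8.52 in heterozygous eyes (-0.78 ± 0.1, adjusted p = 5.14e-05), and tefb (-0.6), hlfa (-0.31) and nfil3-6 (-0.51) were also lower (adjusted p up to 0.000689). The D-box repressor gene nfil3-2 was higher by 0.75 ± 0.19 (adjusted p = 0.0166), a call that was lost without heterozygous replicate 1 or 2 and without mutant replicate 2 or 3, in each of which the list had 0 rises. Photolyases and DNA repair genes that light induces in fish had 5 of 14 tested members that fell and 0 that rose (1 was higher at an unadjusted p under 0.05). The cry-dash gene, whose product repairs ultraviolet lesions in single-stranded DNA, measured 6.82, 6.68 and 6.51 on mutant arrays, against 7.81, 7.88 and 7.86 on heterozygous arrays (2.26-fold lower, adjusted p = 1.36e-06). No mutant array reached any heterozygous array. The lesion-recognition gene ddb2 fell by 0.65 ± 0.11 (adjusted p = 0.000547), and the photolyase gene cry5 by 0.49 (adjusted p = 0.00582) with dim levels on all 3 mutant arrays. Melatonin synthesis moved the other way at its rate-limiting enzyme. The level of aanat2 was 10.13, 10.11 and 10.04 in mutant eyes, against 8.69, 8.87 and 8.97 in heterozygous eyes, 2.38-fold higher (adjusted p = 3.85e-07). The tryptophan hydroxylase gene tph1a, which starts the pathway, rose by 0.58 ± 0.09 (adjusted p = 0.000389), and the receptor gene mtnr1c fell by 0.51 ± 0.09 (adjusted p = 0.00146). The aanat1 gene differed by 0.22 ± 0.1 (adjusted p = 0.202). Of 30 tested immediate early genes, which light and activity induce within minutes, 4 fell and 1 rose, and without heterozygous replicate 1 or 3 or mutant replicate 2 or 3 the falls numbered 1 or 2. So few calls do not set this list apart from all tested genes, of which 8.4% fell and 4.05% rose.

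Among the visual opsins 1 of 8 rose and 0 fell, with 0 lower at an unadjusted p under 0.05. The red cone opsin gene opn1lw1 measured 9.33, 9.26 and 9.26 on mutant arrays, against 7.56, 7.74 and 7.42 on heterozygous arrays, 3.27-fold higher (adjusted p = 2.15e-10). Its tandem paralog opn1lw2, to which its probes may be similar, measured 11.37, 11.36 and 11.37 in mutant eyes and 11.2, 11.3 and 11.21 in heterozygous eyes (0.13 ± 0.05, adjusted p = 0.0785). Groups overlapped in neither, and the difference between the paralogs was not tested. The ultraviolet opsin opn1sw1 (0.02 ± 0.04), the blue opsin opn1sw2 (0.06 ± 0.04) and the green opsin opn1mw1 (-0.18 ± 0.18) gave adjusted p-values from 0.37 to 0.776. The green opsins opn1mw3 and opn1mw4 were dim on all 6 arrays and passed the filter through the later age only.

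Downstream of the opsins, cone transduction and shut-off genes fell, 8 of 22 tested with 0 rising (36.4% against 12.4% of all genes called either way; 1 was higher at an unadjusted p under 0.05). The catalytic subunit of the cone phosphodiesterase, pde6c, read 11.07, 10.89 and 11.05 in mutant eyes, against 11.7, 11.76 and 11.69 in heterozygous eyes (1.63-fold lower, adjusted p = 2.6e-06). The cone opsin kinase genes grk7a and grk7b, whose products switch off activated opsin, fell by 0.83 ± 0.14 and 0.65 ± 0.08 (adjusted p = 0.000582 and 4.11e-05). The mutant arrays read 9.16, 8.99 and 9.41 for grk7a, against 9.88, 10.05 and 10.11 on the heterozygous arrays. Among other shut-off genes, the regulator of G-protein signalling rgs9a fell by 0.52 ± 0.1 (adjusted p = 0.00164) and the recoverin gene rcvrn3 by 0.65 ± 0.11 (adjusted p = 0.000535), whereas rcvrn2 differed by 0.01 ± 0.05 (adjusted p = 0.95). The transducin subunit gnat2 was lower by 0.14 (adjusted p = 0.0291), the smallest of these falls. Without heterozygous replicate 2 or without mutant replicate 2, 5 members fell, and without heterozygous replicate 3 or mutant replicate 2, 1 rose. Of 15 rod transduction genes 3 rose and 3 fell, none by more than 0.39. Without 1 library each, between 0 and 3 of them rose and between 0 and 3 fell (0 rises without heterozygous replicate 1 or 2 or mutant replicate 2, and 0 falls without heterozygous replicate 2 or mutant replicate 3).

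The guanylate cyclases, which restore cyclic GMP after light, and their calcium-binding activator proteins (GCAPs) split between members, with 3 of 10 higher and 3 lower. The gene guca1aa measured 8.03, 8.1 and 7.81 in mutant eyes, against 6.66, 6.24 and 6.64 in heterozygous eyes, 2.77-fold higher (adjusted p = 8.46e-06). Opposite to it, guca1c measured 7.66, 7.51 and 7.78 in mutant eyes, against 8.77, 8.71 and 8.81 in heterozygous eyes (2.16-fold lower, adjusted p = 1.31e-05), and guca1d measured 8.38, 8.33 and 8.61 in mutant eyes, against 9.29, 9.35 and 9.71 in heterozygous eyes (2.02-fold lower, adjusted p = 4.66e-05). In all 3 genes the arrays of the genotypes did not overlap. The gene guca1b did not pass the test, with 8.77, 8.88 and 8.58 in mutant eyes, against 8.67, 8.7 and 8.78 in heterozygous eyes (adjusted p = 0.91). The cyclase genes gucy2d and gucy2f differed by -0.24 and 0.22 (adjusted p = 0.0147 and 0.0408). A rise of 0.76 ± 0.08 was measured in rd3, which holds retinal guanylate cyclase inactive and helps it reach the outer segment (adjusted p = 6.54e-06). Other cyclic nucleotide enzymes were lower in 5 of 19 tested genes and higher in 0 (1 at an unadjusted p under 0.05). The cyclic GMP phosphodiesterase gene pde5aa stood at 7.63, 7.21 and 7.73 in mutant eyes, against 8.69, 8.65 and 8.83 in heterozygous eyes (2.3-fold lower, adjusted p = 1.75e-06). The cyclic GMP-dependent kinase gene prkg2 fell by 1.07 ± 0.1 (adjusted p = 2.09e-06), with 1 of 3 mutant arrays dim.

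**Figure D3:**
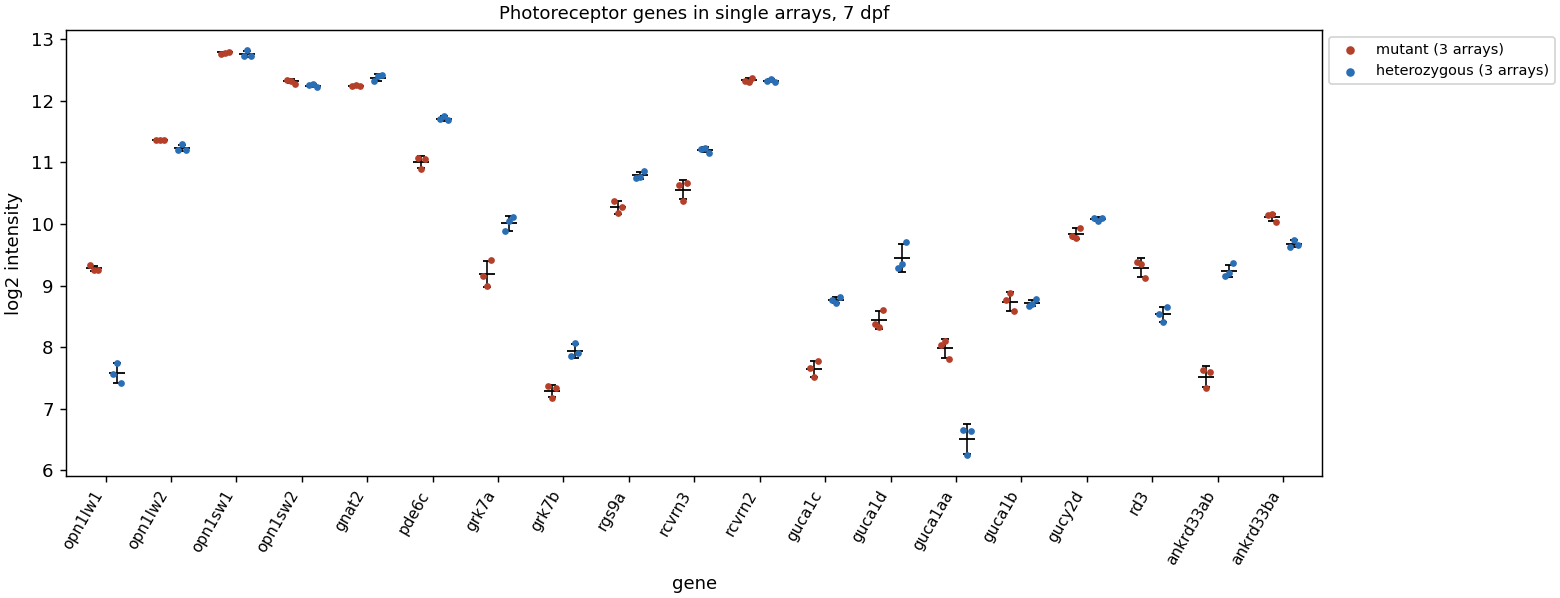
Log2 intensity of 19 photoreceptor genes on single arrays, with mutant arrays (red) left of heterozygous arrays (blue) and bars for the mean ± SD of 3 arrays. The opsin, gnat2 and rcvrn2 pairs lie close together except for opn1lw1, while pde6c, grk7a, grk7b, guca1c, guca1d and ankrd33ab are lower in mutant eyes and guca1aa, rd3 and ankrd33ba are higher.

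The largest fall among the tested genes was that of ankrd33ab, an ankyrin repeat gene of photoreceptors whose mouse relative restrains the transcription factor CRX. It measured 7.63, 7.33 and 7.6 on mutant arrays, against 9.16, 9.2 and 9.36 on heterozygous arrays, 3.3-fold lower (adjusted p = 7.24e-05). The relative ankrd33ba moved the other way, at 10.14, 10.16 and 10.04 in mutant eyes, against 9.63, 9.74 and 9.66 in heterozygous eyes (0.43 ± 0.06, adjusted p = 0.000164). For ankrd33aa (-0.14 ± 0.13) and ankrd33bb (-0.19 ± 0.1) the adjusted p-values were 0.583 and 0.244. Of 27 photoreceptor transcription factors, these included, 4 fell and 1 rose, and 2 fell without heterozygous replicate 1, without heterozygous replicate 2 or without mutant replicate 3. The retinal homeobox gene rx1 fell by 0.67 ± 0.07 (adjusted p = 8.45e-06), and nr2e3, which represses cone genes in rods, by 0.39 ± 0.11 (adjusted p = 0.0304). The photoreceptor factors crx (0.03 ± 0.06), neurod1 (0.05 ± 0.04) and nrl (0.12 ± 0.07) gave adjusted p-values from 0.292 to 0.835. Outer segment structure genes divided into 4 that rose and 5 that fell of 21, from -0.59 in rs1b, which was dim in mutants, to 0.32 in pcare2. Without mutant replicate 2 the falls numbered 3, and without heterozygous replicate 2 or 3 or mutant replicate 2 or 3 the rises numbered 2. Of 39 cilium transport genes 3 fell (7.69%) and 0 rose, with 3 higher at an unadjusted p under 0.05; without heterozygous replicate 2, 1 fell.

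Genes of the visual cycle, which turns all-trans retinal back into the 11-cis chromophore, were lower in mutant eyes. Of 25 tested members 12 fell (48%) and 0 rose, with 0 higher at an unadjusted p under 0.05, and the median difference was -0.26, against -0.03 for all genes. The largest fall was in rdh20, a retinol dehydrogenase family gene, at 7.43, 7.52 and 7.49 in mutant eyes, against 8.6, 8.35 and 8.18 in heterozygous eyes (1.86-fold, adjusted p = 0.000107). The falls covered genes whose products act in pigment epithelium, photoreceptors and the matrix between them. The isomerase gene rpe65a of the pigment epithelium read 11.0, 11.0 and 11.01 in mutant eyes, against 11.58, 11.46 and 11.37 in heterozygous eyes (-0.46 ± 0.1, adjusted p = 0.00484), and the photoreceptor dehydrogenase genes rdh8a and rdh8b fell by 0.41 and 0.38 (adjusted p = 0.00433 and 0.00359). The interphotoreceptor carrier gene rbp3 fell by 0.44 ± 0.06 (adjusted p = 5.65e-05). The 2 retinal binding protein genes of glia and pigment epithelium differed from each other, as rlbp1b fell by 0.45 ± 0.08 (adjusted p = 0.00107) and rlbp1a did not pass the test (0.0 ± 0.07, adjusted p = 0.989), though the difference between them was not tested. Among melanin genes of the pigment epithelium 3 of 20 fell, and without heterozygous replicate 3 it was 6.

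Genes listed for glia and for glutamate transport also fell more often than they rose. Of 25 tested genes of Müller glia, the radial glia of the retina, 8 fell and 0 rose (1 higher at an unadjusted p under 0.05), and without mutant replicate 3, 5 fell. Over all tested genes 8.4% fell and 4.05% rose. On the glial list, the glutamate transporter gene slc1a2a measured 9.17, 9.0 and 9.2 on mutant arrays, against 10.11, 10.2 and 10.21 on heterozygous arrays, 2.07-fold lower (adjusted p = 2.6e-07). Which cells of the eye gave its signal was not tested. The water channel gene aqp4 fell by 0.53 ± 0.08 (adjusted p = 0.000395), the GABA transporter gene slc6a13 by 0.61 ± 0.1 (adjusted p = 0.000689) and the potassium channel gene kcnj10a by 0.36 ± 0.07 (adjusted p = 0.00182). The glutamine synthetase genes glula and glulb, which convert the glutamate taken up, were lower by 0.25 and 0.26 (adjusted p = 0.0026 and 0.0499). Genes of gliosis and regeneration did not share this, with 1 of 28 called, rx1, which the photoreceptor list also holds. Across glutamate transporters 6 of 15 fell and 2 rose, in a list that holds slc1 genes and vesicular transporter genes (slc17). Of its falls, slc17a7a (-0.38) and slc17a6b (-0.21) are vesicular (limma adjusted p = 0.00151 and 0.0413), and both rises are slc1 genes. The fish transporter gene slc1a8b stood at 9.17, 8.82 and 9.08 in mutant eyes, against 10.08, 10.3 and 10.16 in heterozygous eyes, 2.23-fold lower (adjusted p = 5.57e-07). Its relative slc1a7a was higher, at 9.84, 9.81 and 9.71 in mutant eyes, against 8.69, 8.67 and 8.74 in heterozygous eyes (2.12-fold, adjusted p = 2.09e-05). The paralog slc1a7b, at 9.99, 9.85 and 9.94 in mutant eyes, against 9.87, 9.82 and 9.77 in heterozygous eyes, did not pass the test (0.1 ± 0.06, adjusted p = 0.286). Leaving out heterozygous replicate 2, mutant replicate 2 or mutant replicate 3 gave 3 falls in each case, and every replicate left out except heterozygous replicate 3 gave 1 rise, slc1a8a being the smaller of the 2 rises (0.24 ± 0.07, adjusted p = 0.0266).

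**Figure D4:**
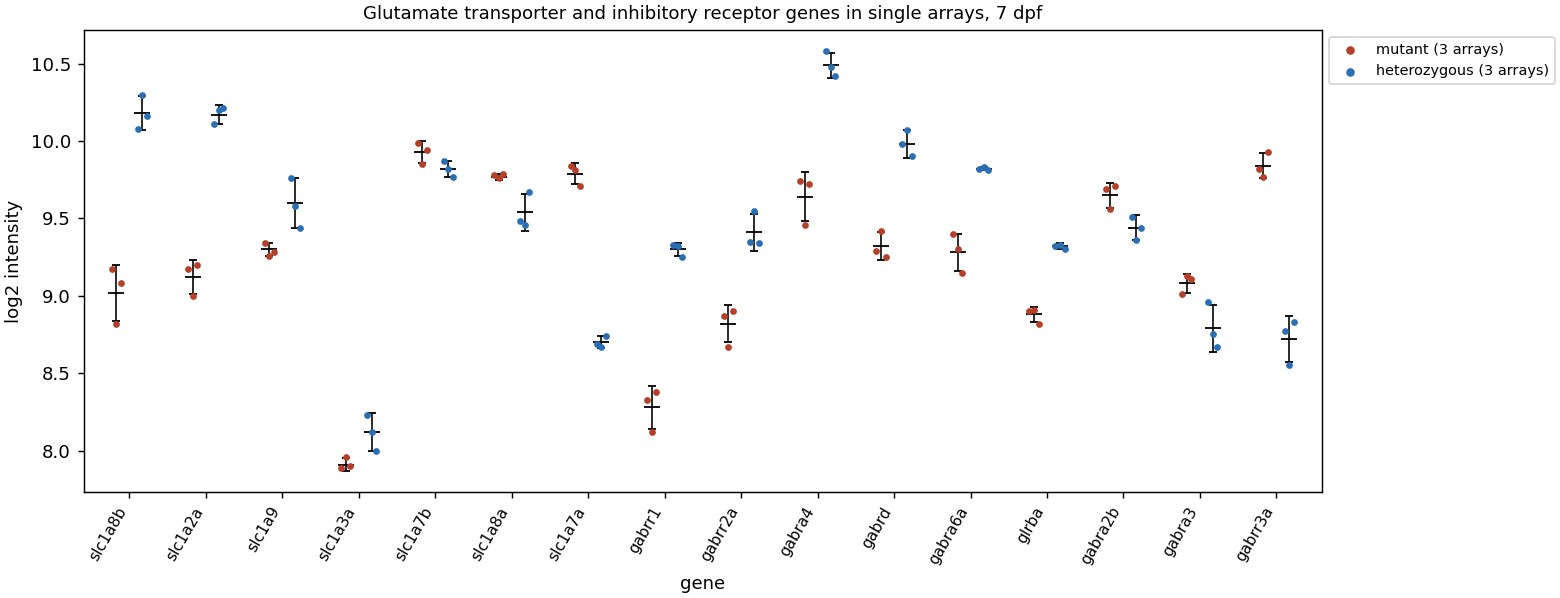
Log2 intensity of 7 glutamate transporter genes and 9 GABA or glycine receptor genes on single arrays, with mutant arrays (red) left of heterozygous arrays (blue) and bars for the mean ± SD of 3 arrays. The slc1a8b, slc1a2a, gabrr1, gabrr2a, gabra4, gabrd, gabra6a and glrba values are lower in mutant eyes, and those of slc1a7a and gabrr3a are higher with no overlap.

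Receptors for the inhibitory transmitters GABA and glycine changed in 11 of 26 tested genes (42.3%), with 8 lower and 3 higher. The rho subunits, which form slowly closing GABA receptors found on bipolar cells, split. The gene gabrr1 measured 8.33, 8.12 and 8.38 on mutant arrays, against 9.33, 9.32 and 9.25 on heterozygous arrays (2.03-fold lower, adjusted p = 2.09e-06), and gabrr2a fell by 0.6 ± 0.08 (adjusted p = 6.94e-05). In contrast gabrr3a read 9.82, 9.77 and 9.93 in mutant eyes, against 8.77, 8.55 and 8.83 in heterozygous eyes, 2.18-fold higher (adjusted p = 2.63e-05). The extrasynaptic delta subunit gene gabrd fell by 0.66 ± 0.08 (adjusted p = 2.67e-05), together with the alpha subunit genes gabra4, by 0.85 ± 0.08, and gabra6a, by 0.54 ± 0.06 (adjusted p = 3.9e-06 and 1.66e-05). The glycine receptor beta subunit gene glrba fell by 0.44 ± 0.05 (adjusted p = 4.73e-05). The other rises were small, gabra3 at 0.29 and gabra2b at 0.22, and without heterozygous replicate 2 or 3 or without mutant replicate 3 the rises numbered 1. Glutamate receptor genes showed no fall among 34 tested (0 also at an unadjusted p under 0.05) and 4 small rises, the largest 0.31 in grm6b, the receptor of ON bipolar cells. The median of that list was 0.11, and 1 rise was left without heterozygous replicate 2 or mutant replicate 3, and 2 without heterozygous replicate 1, heterozygous replicate 3 or mutant replicate 2, while 7 rose once the arrays were centred.

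Among neuronal calcium sensors and calcium-binding proteins 11 of 31 tested genes fell and 0 rose (1 higher at an unadjusted p under 0.05). The neurocalcin gene ncaldb measured 8.65, 8.48 and 8.61 on mutant arrays, against 9.73, 9.7 and 9.79 on heterozygous arrays, 2.23-fold lower (adjusted p = 8.73e-08). The bipolar cell calcium-binding gene cabp5b read 9.21, 8.9 and 9.3 in mutant eyes, against 10.0, 10.02 and 10.09 in heterozygous eyes (1.87-fold lower, adjusted p = 1.96e-06), and its paralog cabp5a was lower by 0.45 ± 0.07 (adjusted p = 0.000575). Of 18 calcium-calmodulin kinase genes 6 fell and 0 rose, with 0 higher at an unadjusted p under 0.05. The upstream kinase gene camkk1b stood at 7.02, 6.46 and 6.49 in mutant eyes, against 7.92, 8.03 and 8.38 in heterozygous eyes, 2.74-fold lower (adjusted p = 2.51e-06). Some of its substrates' genes, camk1a (-0.48), camk1db (-0.45), camk1ga (-0.35) and camk1gb (-0.32), were lower too (adjusted p up to 0.0107). Other genes of the family, camk4 (-0.32), camk1b (-0.04) and camk1da (0.06), did not pass limma's test (adjusted p = 0.108, 0.762 and 0.525). Nor did the paralog camkk1a (-0.05, adjusted p = 0.79). The remaining fall of this list was that of camk2b2, outside the camk1 group (-0.43 ± 0.07, limma adjusted p = 0.000689). Among ion channels, potassium and HCN channel genes had 4 rises and 14 falls of 81. The inward rectifier genes kcnj20 and kcnj2b lay at its ends, with 1.12 ± 0.17 and -0.84 ± 0.1 (adjusted p = 0.000271 and 2.34e-05), and each was dim on some arrays of its lower group. Leaving out heterozygous replicate 1, heterozygous replicate 2 or mutant replicate 2 gave 7, 8 and 9 falls, and leaving out heterozygous replicate 1 or 2 or mutant replicate 2 or 3 gave 1 or 2 rises. Genes named as subunits of voltage-gated calcium channels, the cacng genes included, had 5 rises and 4 falls of 39 tested (23.1% called, against 12.4% of all genes). The rises were cacna2d4a (0.68 ± 0.11, adjusted p = 0.000578), which photoreceptor synapses use, its paralog cacna2d4b (0.38), cacng5a (0.42), cacna1fb (0.31) and cacna1aa (0.22). The falls were cacnb2a (-0.24), cacna1ha (-0.23), cacng7b (-0.22) and cacna2d1a (-0.21). With centred arrays 1 fell, and the falls numbered 0 without heterozygous replicate 1 or mutant replicate 2, 1 without heterozygous replicate 2, and 2 without heterozygous replicate 3 or mutant replicate 1.

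At the synapse, the 3 cplx4 complexin genes, which encode the complexin type of ribbon synapses, were all lower. Levels of cplx4a were 9.72, 9.67 and 9.77 in mutant eyes, against 9.99, 10.08 and 10.12 in heterozygous eyes (-0.34 ± 0.06, adjusted p = 0.000909), and cplx4c fell by 0.22 ± 0.06 (adjusted p = 0.0247) on the brighter of its probe sets, while a far dimmer one differed by 0.04. The third, cplx4b, fell by 1.07 ± 0.19 (adjusted p = 0.00123), but its probe set was dim on all 6 arrays, at 5.39, 4.35 and 5.39 in mutants and 6.12, 6.08 and 6.15 in heterozygotes, so the size is not exact. Of 35 vesicle release genes 7 fell and 1 rose, and 4 fell without heterozygous replicate 2. Among marker lists of inner retinal neurons, 1 of 14 genes was called for horizontal cells (7.14%), 1 of 21 for amacrine cells (4.76%) and 3 of 22 for ganglion cells (13.6%), against 12.4% of all genes. Bipolar cell genes had 3 rises and 5 falls of 23 (34.8% called), from -0.9 in cabp5b to 0.48 in nfia. Without heterozygous replicate 2, and without mutant replicate 3, 0 amacrine genes were called as lower. On the ganglion list 2 fell and 1 rose, with 1 fall without heterozygous replicate 1 or 2 and 0 rises without mutant replicate 2.

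Genes of cell-surface recognition rose more often than they fell. Of 87 axon guidance genes 13 rose and 3 fell, so 18.4% were called. The plexin gene plxna1b, a semaphorin receptor, measured 10.86, 10.92 and 10.99 on mutant arrays, against 10.24, 10.34 and 10.24 on heterozygous arrays (1.57-fold higher, adjusted p = 1.04e-06), and the Eph receptor genes ephb2a and ephb2b rose by 0.42 and 0.37 (adjusted p = 0.00482 and 0.000937). A second, less bright probe set of ephb2b, at a mean level of 8.22, differed by only 0.09. The falls were the semaphorin gene sema7a (-0.76) and the ephrin genes efna1a (-0.52) and efna1b (-0.26). The centred arrays gave 20 rises, and without mutant replicate 1 the falls numbered 5. The clustered protocadherins, adhesion proteins of which single neurons express different sets from tandem gene arrays, were looked at after their values had been seen. Of 26 tested members 22 rose (84.6%) and 0 fell, and their differences ran from 0.22 to 0.71 with a median of 0.55. A bright member, pcdh1g26, measured 10.72, 10.82 and 10.82 in mutant eyes, against 10.11, 10.11 and 10.26 in heterozygous eyes (1.54-fold higher, adjusted p = 7.29e-06), and pcdh1g9 measured 8.74, 8.68 and 8.6 in mutant eyes, against 8.0, 7.96 and 7.96 in heterozygous eyes (1.62-fold, adjusted p = 0.000124). In 24 of the 26 all mutant arrays lay above all heterozygous arrays, against 11.8% of all tested genes, though the list was chosen with these values known. Members of these clusters share closely related sequence and, within a cluster, common exons, so their probe sets may share signal and are not independent. Among 18 protocadherins outside the clusters, a list also made after the values were seen, 6 rose and 0 fell, with differences from 0.06 to 0.30. Without heterozygous replicate 1 the rises there numbered 3, and without heterozygous replicate 2, 2.

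The pathways next to cobalamin were also examined. Of 25 tested genes of the methionine and homocysteine cycle 9 fell (36%) and 0 rose, with 0 higher at an unadjusted p under 0.05. The methionine adenosyltransferase gene mat2ab, which makes S-adenosylmethionine, measured 8.33, 8.04 and 8.16 on mutant arrays, against 9.21, 9.28 and 9.17 on heterozygous arrays, 2.06-fold lower (adjusted p = 2.34e-06). Its paralog mat2aa read 10.5, 10.49 and 10.57 in mutant eyes and 10.51, 10.45 and 10.5 in heterozygous eyes and did not pass the test (0.03 ± 0.06, adjusted p = 0.786). The mat1a isoform fell by 0.56 ± 0.09 (adjusted p = 0.000719), the glycine N-methyltransferase gene gnmt by 0.64 ± 0.14 (adjusted p = 0.00598; 1 mutant array dim) and the transsulfuration genes cbsb and cth by 0.37 and 0.25 (adjusted p = 0.00117 and 0.0263). Values that did not pass the test were those of ahcy, which splits S-adenosylhomocysteine, at -0.13 ± 0.07 (adjusted p = 0.288), bhmt, which remethylates homocysteine, at -0.29 ± 0.13 (adjusted p = 0.168) and mtrr, which reactivates methionine synthase, at -0.07 ± 0.07 (adjusted p = 0.564). In the cobalamin pathway itself 2 of 13 tested genes fell, mmadhcb, a partner of the mmachc product, by 0.33 ± 0.09 and lmbrd1, which exports cobalamin from the lysosome, by 0.25 ± 0.07 (adjusted p = 0.0246 and 0.0264). The calls depended on which libraries were kept: leaving out heterozygous replicate 1, 2 or 3 or mutant replicate 1 left 1 call and leaving out mutant replicate 3 left 0. In both genes all mutant arrays lay below all heterozygous arrays, an order that 18.6% of all tested genes showed. Among folate enzymes 1 of 19 fell, mthfd2, by 0.39 ± 0.08 (adjusted p = 0.00279), and without heterozygous replicate 3 or mutant replicate 1 it was 2 or 3. Of 31 genes of branched chain and propionate breakdown 3 fell (9.68%). DNA methylation genes had 0 of 14 called by limma, with 2 higher and 1 lower at an unadjusted p under 0.05, and 1 rise and 1 fall without mutant replicate 2.

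In energy metabolism, a list of glycolysis, glucose or lactate transport and pyruvate dehydrogenase kinase genes had 16 of 47 lower and 2 higher. The kinase genes pdk2b (-0.54), pdk2a (-0.47) and pdk3a (-0.19), which are neither glycolytic enzymes nor transporters, were among the falls (limma adjusted p up to 0.0328). The glucose transporter gene slc2a1a measured 10.09, 9.9 and 10.16 in mutant eyes, against 10.76, 11.07 and 10.84 in heterozygous eyes (1.8-fold lower, adjusted p = 1.6e-05), and slc2a1b fell by 0.37 ± 0.05 (adjusted p = 0.000185). Along the pathway hk1 (-0.45), gpia (-0.29), pfkpa (-0.34), aldoaa (-0.26), pgk1 (-0.43), eno1a (-0.23) and ldha (-0.32) were lower (adjusted p up to 0.0266). Not every step passed limma's test, as shown by gapdhs (-0.06), pkma (-0.15) and tpi1b (-0.21), with adjusted p = 0.414, 0.113 and 0.0551. The paralogs pfkpb (-0.13) and eno2 (-0.11) were not called either. The lactate dehydrogenase B gene ldhbb was higher, at 8.81, 8.87 and 8.55 in mutant eyes, against 8.38, 8.37 and 8.38 in heterozygous eyes (0.37 ± 0.07, adjusted p = 0.00237). The other rise was pfkfb2a (0.27), and each library left out in turn gave 1 rise. Oxidative phosphorylation had 5 of 84 lower (5.95%) and 0 higher, with 0 also at an unadjusted p under 0.05, which is under the background of 8.4% falls. Without heterozygous replicate 1 it was 3, and without mutant replicate 1 it was 10. The succinate dehydrogenase genes sdha and sdhb were among them, by 0.43 and 0.3 (adjusted p = 0.000312 and 0.00156).

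Among stress genes most calls were falls, as they were over all genes (67.5%). Of 29 heat shock genes 8 fell and 0 rose (0 also at an unadjusted p under 0.05), the heat shock factor gene hsf2 by 0.68 ± 0.11 and the small heat shock gene hspb1 by 0.45 ± 0.11 (adjusted p = 0.000516 and 0.0138), and 1 rose without mutant replicate 3. Antioxidant and glutathione genes had 6 of 35 lower and 0 higher, with 0 also at an unadjusted p under 0.05, led by the pentose phosphate gene pgd (-0.58 ± 0.07, adjusted p = 2.28e-05) and the haem oxygenase gene hmox2a (-0.57 ± 0.06, adjusted p = 2.14e-05). The nuclear factor gene nfe2l2a, which drives antioxidant genes, fell by 0.32 ± 0.06 (adjusted p = 0.00225). The endoplasmic reticulum chaperone genes hspa5 and hsp90b1 fell by 0.37 and 0.31 (adjusted p = 0.000689 and 0.013), among 8 falls and 1 rise of 44 genes of the integrated and reticulum stress response. The largest falls of that list were pdia6 (-0.5) and asns (-0.39), and the rise was trib3 (0.34, limma adjusted p = 0.0118). At an unadjusted p under 0.05, 3 of its members were higher, ddit3 (0.28) and ern1 (0.22) among them, and 15 were lower. Leaving out heterozygous replicate 1, 2 or 3 or mutant replicate 3 gave 3 or 4 falls there, and 0 rose without heterozygous replicate 3. The p53 and apoptosis list had 3 of 20 tested genes higher and 5 lower at an unadjusted p under 0.05, and 6 higher and 14 lower at any p. In that list cdkn1a, an inhibitor of cyclin-dependent kinases, was higher, at 7.63, 7.84 and 7.45 in mutant eyes, against 6.67, 6.49 and 6.57 in heterozygous eyes (2.09-fold, adjusted p = 4.67e-05). The p53 inhibitor gene mdm2 read 8.45, 8.43 and 8.4 in mutant eyes and 8.55, 8.59 and 8.58 in heterozygous eyes and did not pass the test (-0.15 ± 0.05, adjusted p = 0.0874). Cell cycle genes had 1 of 43 called, top2a at 0.29 (adjusted p = 0.0291), a count that ran from 0 to 4 rises and 0 to 3 falls over the libraries left out singly. One entry, tpx2, had been removed from that list after its values were seen because its synonym led to another gene.

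Among growth factor genes 2 rises were large. The gene fsta, which encodes the activin antagonist follistatin, measured 8.39, 8.21 and 8.07 on mutant arrays, against 5.85, 5.66 and 5.76 on heterozygous arrays, where it was dim, so its 5.53-fold rise is not exact in size (adjusted p = 3.85e-10). The activin subunit gene inhbb measured 9.14, 9.14 and 9.31 in mutant eyes, against 8.03, 7.83 and 8.04 in heterozygous eyes, 2.35-fold higher (adjusted p = 7.83e-08). RNA of an activin subunit gene and of the gene for its binding protein was therefore higher, with no overlap of arrays in either gene. The gene fsta met the intensity filter of at least 3 arrays only with the mutant arrays counted, as it was above the percentile on all 3. It was above it on 0 heterozygous arrays of this age and on 1 array of the later age. The paralogs fstb (-0.24 ± 0.11) and inhbab (0.05 ± 0.08) did not pass the test (adjusted p = 0.191 and 0.769). Other large rises without a list were those of fam131aa (3.53-fold), spsb3b (3.11-fold), a SOCS box gene, dtx4a (2.77-fold), a Deltex ubiquitin ligase gene, and KCTD20 (2.48-fold), with adjusted p up to 6.05e-07. Other large falls were those of the phosphatase gene ppm1na (2.07-fold, adjusted p = 3.82e-06) and the phosphoinositide kinase gene pip5k1ba (2.07-fold, adjusted p = 0.000185), the second dim on all mutant arrays. The leiomodin gene lmod2b rose by 1.2 ± 0.18 (adjusted p = 0.000262) and was dim on all heterozygous arrays.

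Marker lists of cells outside the retina were measured beside these results. The skeletal muscle list had 0 of 29 tested genes called by limma, with 2 higher and 0 lower at an unadjusted p under 0.05, and 23 of its 46 measured genes were dim on all 6 arrays. Its mean level over all 46 ran from 5.92 to 6.03 on mutant arrays and from 5.68 to 5.93 on heterozygous arrays, and 26 of the 29 tested were higher in mutants. The part of these levels in the rise of lmod2b was not tested. Of 50 tested lens genes, crystallins and other genes of the lens, 0 were called, with 0 higher and 5 lower at an unadjusted p under 0.05. The mean level over 59 measured genes ran from 7.99 to 8.09 on mutant arrays and from 8.01 to 8.22 on heterozygous arrays. Without heterozygous replicate 1, mutant replicate 1 or mutant replicate 3 the lens list had 4, 3 and 1 falls. Corneal and skin epithelium had 5 of 30 genes lower, and 2 or 3 without heterozygous replicate 1 or mutant replicate 3, its mean level being 7.71 to 7.92 in mutant eyes and 7.89 to 8.10 in heterozygous eyes. In the macrophage list 19 of 27 genes, mpeg1.1 among them, were dim on all 6 arrays, and 1 of 12 tested fell (2 without mutant replicate 2). The interferon list had 24 of 31 genes dim on all arrays and 0 of 8 called, with 1 higher and 0 lower at an unadjusted p under 0.05, and 1 rise without mutant replicate 3. The matrix, sclera and cartilage list had 5 of 44 tested genes higher and 0 lower at an unadjusted p under 0.05. Its matn1 (0.54) and acana (0.41, dim on all heterozygous arrays) rose by limma's test (adjusted p = 0.038 and 0.0167). Called genes elsewhere included fech (-0.55) and urod (-0.3) for erythrocytes and nccrp1 (-0.44) for neutrophils. They also included gpr37b (0.25) and pmp22b (-0.28) for myelin, and cdh5 (0.31) and kdrl (-0.32) for endothelium.

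**Figure D5:**
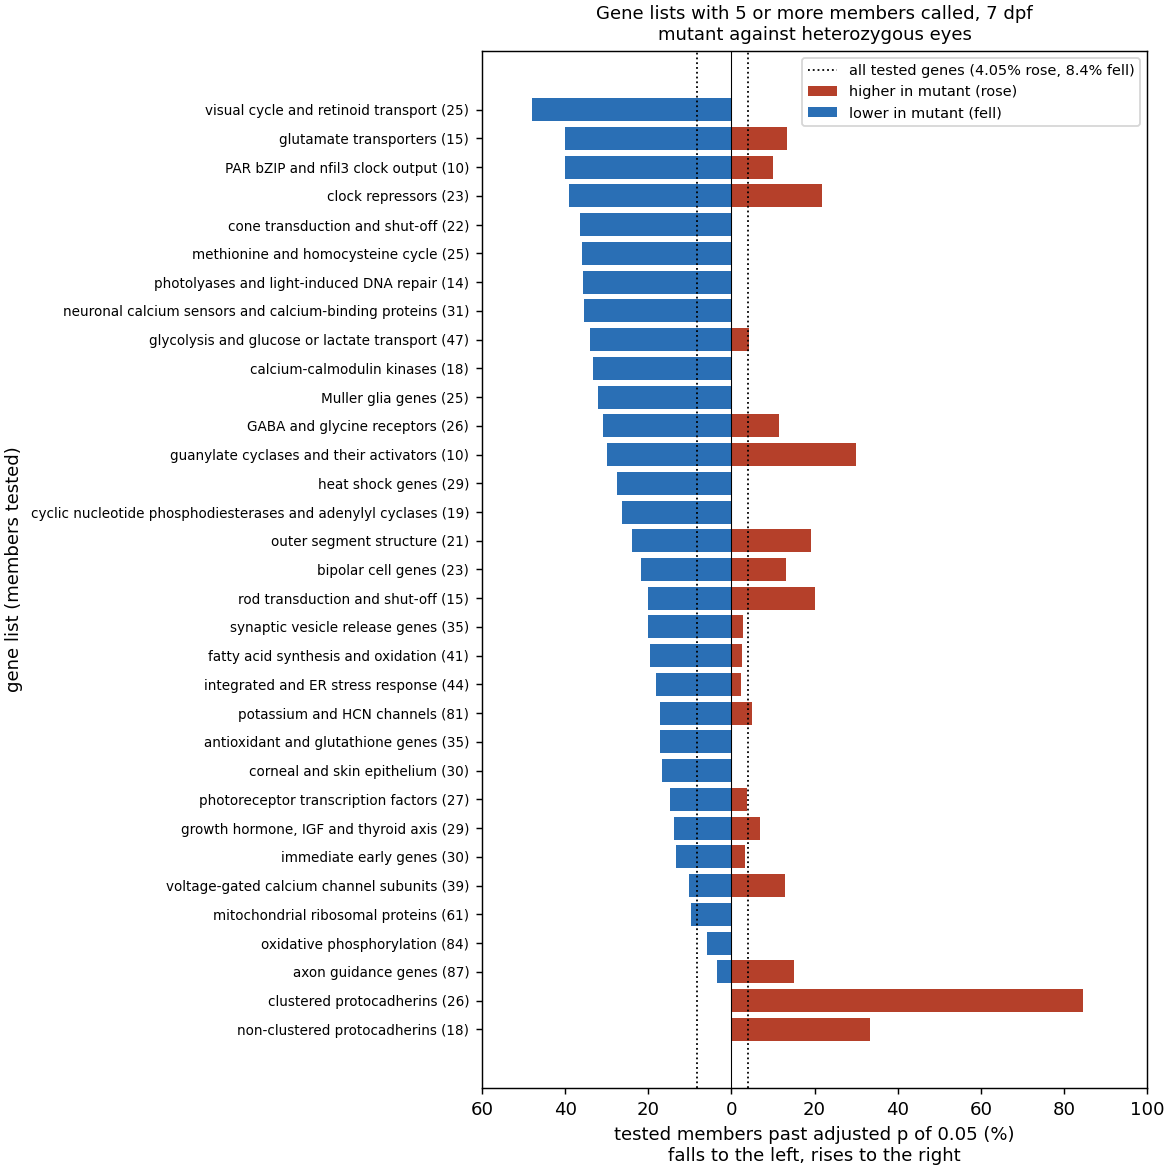
Share of the tested members of each gene list that fell (blue, to the left) or rose (red, to the right) in mutant against heterozygous eyes at a limma adjusted p under 0.05, for the 33 lists with 5 or more called members; dotted lines give the shares over all 14002 tested genes, 4.05% and 8.4%. The visual cycle has the longest bar to the left and 12 falls of 25, and the clustered protocadherins, a list made after the values were seen, the longest to the right. Lists other than those of protocadherins were chosen with earlier results of these data known.

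The size of the genotype difference depended on age for most of the 30 genes with the largest differences at 7 dpf. The difference at 7 dpf minus that at 28 dpf passed limma's test in 29 of the 30, against 47.2% of all genes tested, but the 30 were chosen for their 7 dpf values, so this share says nothing about other genes. At 28 dpf the genotype difference was 1.0 for nr1d4b and 0.87 for nr1d4a, in the same direction as at 7 dpf, and -0.29 for opn1lw1 and 1.07 for ankrd33ab, in the opposite direction (adjusted p = 6.97e-06, 6.91e-06, 0.00173 and 0.000656). For per3, ncaldb and inhbb it was 0.02, 0.00 and -0.02. The exception was cplx4b, with -1.07 at 7 dpf and -1.22 at 28 dpf, a difference of 0.14 ± 0.27 (SE, adjusted p = 0.692) that became 0.49 without mutant replicate 2 (adjusted p = 0.00695).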

How the data were processed

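Total RNA of pooled whole eyes was hybridised to 12 single-colour Affymetrix arrays, and titles gave each array its group and replicate number. Deposited as log2 intensities, the values of the probe sets were made by the authors with Affymetrix Expression Console and RMA, per the submitters' processing notes. Probe sets were named from GEO's table for a zebrafish platform, whereas the labels' protocol names another chip type. No genome build is stated there. RMA puts all arrays on 1 distribution, and signal over background is not given. Genotype differences come from limma 3.58.1 run in R 4.3.3 (lmFit with 4 group means over 12 arrays, eBayes with a mean-variance trend, 8 residual degrees of freedom), for genes above the 33rd percentile on at least 3 arrays, with Benjamini-Hochberg adjustment over 14002 genes. The fit was tested on simulated data. The precision is limited by 3 pools per group, with a median SE of 0.08.

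The genes compared and the 64 gene lists were chosen with earlier results of these data known, and 2 further protocadherin lists were made after the values were seen. Lists are described by counts and medians, not tested. Of 1529 list entries given as symbols, 192 were not matched. Named genes are the 15 largest rises and 15 largest falls among called genes whose groups did not overlap (2 and 3 clone names passed over), and from each list up to 6 called members with the largest differences, or the 2 brightest where none passed, with paralogs; members beyond this rule are named for their place in a pathway. Of 34 called list genes with several probe sets, 6 had probe sets that differed in sign. Alternatives were centring, no filter, the 50th percentile, the mean over probe sets, no trend, a robust trend, the replicate number as a block, the 7 dpf arrays alone, and each replicate left out.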

Additional observations from a re-analysis of the deposited data

Results flagged for a closer look

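For 29 of the 30 genes with the largest differences at 7 dpf, the mutant minus heterozygous difference itself differed between ages by the interaction term of the limma fit. The values below are the difference at 7 dpf minus that at 28 dpf, on the log2 scale, with adjusted p from 2.76e-09 to 0.0395. The genes were chosen for large values at 7 dpf, which favours such a result.

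Among genes higher in mutant eyes at 7 dpf, the clock genes gave 2.49 (nr1d4b), 1.74 (nr1d4a), 1.48 (bmal2), 1.27 (fbxl3l) and 1.44 (aanat2). The photoreceptor genes gave 1.99 (opn1lw1) and 0.66 (guca1aa), and the GABA receptor gene gabrr3a gave 0.49. The activin pathway genes gave 2.71 (fsta, dim at 7 dpf in heterozygous eyes and on 5 of 6 arrays at 28 dpf) and 1.25 (inhbb). The remaining rises gave 1.54 (fam131aa), 1.0 (spsb3b), 1.07 (dtx4a), 0.82 (KCTD20) and 0.84 (lmod2b).

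Among genes lower in mutant eyes at 7 dpf, the clock and photolyase-family genes gave -1.73 (per1b), -1.20 (per3) and -1.22 (cry-dash, dim on all 6 arrays at 28 dpf). The photoreceptor and calcium genes gave -2.80 (ankrd33ab), -0.74 (guca1c), -1.16 (ncaldb) and -1.76 (camkk1b). Cyclic GMP genes gave -1.02 (pde5aa) and -0.95 (prkg2), and glutamate transporters -1.07 (slc1a8b) and -0.92 (slc1a2a). The others gave -0.65 (ppm1na), -0.71 (pip5k1ba) and -1.23 (mat2ab).

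The age dependence of gabrr3a did not pass the test once arrays were centred (0.32, adjusted p = 0.157), without a trend (adjusted p = 0.0587), with a robust trend (adjusted p = 0.0705) and without heterozygous replicate 2, mutant replicate 1 or mutant replicate 3 (0.41 to 0.50, adjusted p from 0.058 to 0.101). That of guca1aa did not pass once arrays were centred (0.49, adjusted p = 0.0556) or without heterozygous replicate 2 (0.53, adjusted p = 0.0553).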

How the results depend on the processing

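All 30 genes with the largest differences kept their direction and passed limma's test under each of the 14 alternatives that gave them a value. These genes were chosen as called genes whose groups did not overlap. Leaving out a replicate could therefore not reverse their direction, and the choice favours passing again. Of the 1743 genes called, 85.9% to 99.1% were also called under the other fits, and 67.1% to 85.2% with 1 replicate left out. The calls numbered 1785 with centred arrays, 1625 with no filter and 1524 without a trend, and 1216 to 1812 with 1 replicate left out; falls ran from 812 to 1347 and rises from 371 to 479 there. Only the rises without heterozygous replicate 2 (371, against 567) moved by over 1.5 times, and the cause was not tested. Falls were 67.5% of calls as deposited, 57.2% with centred arrays, 67.1% to 68.8% under the other fits and 63.4% to 74.3% with 1 replicate left out. With the replicate block 1962 genes were called, 96.4% of the 1743 among them. Whether the replicate numbers pair the samples was not settled. Deviations of same-numbered arrays correlated at -0.07, 0.06 and 0.12, against -0.14 to 0.096 for differently numbered arrays. Not every array correlated best with its own number. The deviations within a group of so few arrays are not independent, so this check cannot decide whether same-numbered arrays share a batch or clutch. Of the gene list counts, 258 of 1848 values moved by over 1.5 times. Differences to dim levels are not exact in size, since signal over background is not given.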
